A study of Mus musculus with 2 samples.

Results

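The secretory pathway carries newly made proteins from the ribosome to the Golgi apparatus, and the genes described here encode its entry and transport machinery. They are the signal recognition particle (SRP) and its receptor, the Sec61 translocon with its partners, signal peptidase, oligosaccharyltransferase (OST), the COPI and COPII vesicle coats, the SNARE Sec22b and the KDEL receptors. The members were taken from a list of 49 gene symbols, of which 48 have a row among the 22756 gene rows of the deposited tables, and Srp54a is not analysed here. The assay sequences the mRNA fragments that ribosomes shield from nuclease (footprints), here from ileum, the distal small intestine, of C57BL/6 wild type animals aged 21 postnatal days. There was 1 library from mice fasted for 48 h and 1 library from fed mice. The sources used here do not give how many animals entered a library or if their tissue was combined. Gene counts totalled 5434252 in the fasted and 5558620 in the fed library. A footprint count reflects both the amount of an mRNA and how heavily it is translated, and without mRNA levels these cannot be told apart. With n = 1 per condition every difference below is between these libraries, has no replicate check and carries no p-value.

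SRP binds the signal peptide of a protein as it leaves the ribosome and brings the ribosome to its receptor on the endoplasmic reticulum (ER). The chain then enters the ER through the Sec61 channel, signal peptidase removes the signal peptide, and OST attaches a preassembled sugar chain to asparagines (N-glycosylation). COPII coats form the vesicles that leave the ER, and COPI coats form the vesicles that return escaped ER proteins, which KDEL receptors recognise. In the intestine this route serves mucin-secreting goblet cells, antimicrobial Paneth cells and plasma cells, and enterocytes use COPII-dependent transport for brush border enzymes and for chylomicrons, the lipoproteins that carry dietary fat.

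Of the 26 measured ER entry and glycosylation genes, fasted footprints were called lower for 7 (background 17.3% of all measured genes), higher for 0 and neither for 19, and 23 had a ratio below that of the typical gene (the all-gene median). Of the 19 measured genes of the coats, the SNARE and the KDEL receptors, 1 was called higher (background 17.2%), 0 lower and 18 neither, and 9 had a ratio below that of the typical gene. Of the 48 members with a row, 45 reached 30 counts when both libraries were added and are called measured. A measured gene was called higher or lower when its fasted/fed ratio was at least 1.5-fold and the 95% interval of that ratio excluded 1. The ratio uses TMM-scaled counts, which set the typical gene near 1, and the interval (exact, Clopper-Pearson) covers counting error only. Of the 45 measured members, 7 were lower (15.6%), against 17.3% of all 11333 measured genes, and 1 was higher (2.22%), against 17.2% of all measured genes. The share of members called lower was thus near the background. The median log2 ratio was -0.14 over the members and 0.0024 over all measured genes, and the middle 50% of ratios spanned -0.37 to 0.038 for the members and -0.44 to 0.44 for all measured genes. The members were less spread, with a log2 SD of 0.40 against 0.84 over all measured genes. Of the members, 32 had a ratio below the all-gene median. The interval lay wholly below that median for 20 members and wholly above it for 10.

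Dividing by the total gene count alone (plain CPM) moved every log2 ratio by -0.32, that of the typical gene included. On that scale 19 members were lower (42.2%, against 31.2% of all measured genes) and 1 was higher (2.22%, against 8.86%). The order of the members, and the balance between any of them, does not depend on this choice. The contrast between complexes was therefore also taken as an odds ratio of summed counts, which no scaling changes. COPII counts made up 58.3% of the COPII and OST counts in the fasted library (95% interval 57.6% to 59.0%) and 44.6% in the fed library (43.9% to 45.2%). The log2 odds ratio was 0.80 (0.74 to 0.85), and it was 0.66 (0.60 to 0.72) with Sec24d left out of COPII. Against COPI, the COPII log2 odds ratio was 0.41 (0.35 to 0.46), and COPI against OST had 0.39 (0.34 to 0.44). Signal peptidase and OST kept nearly the same balance in both libraries, with a log2 odds ratio of 0.0085 (-0.10 to 0.12). These contrasts between complexes were chosen after the ratios were seen.

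**Figure D1:**
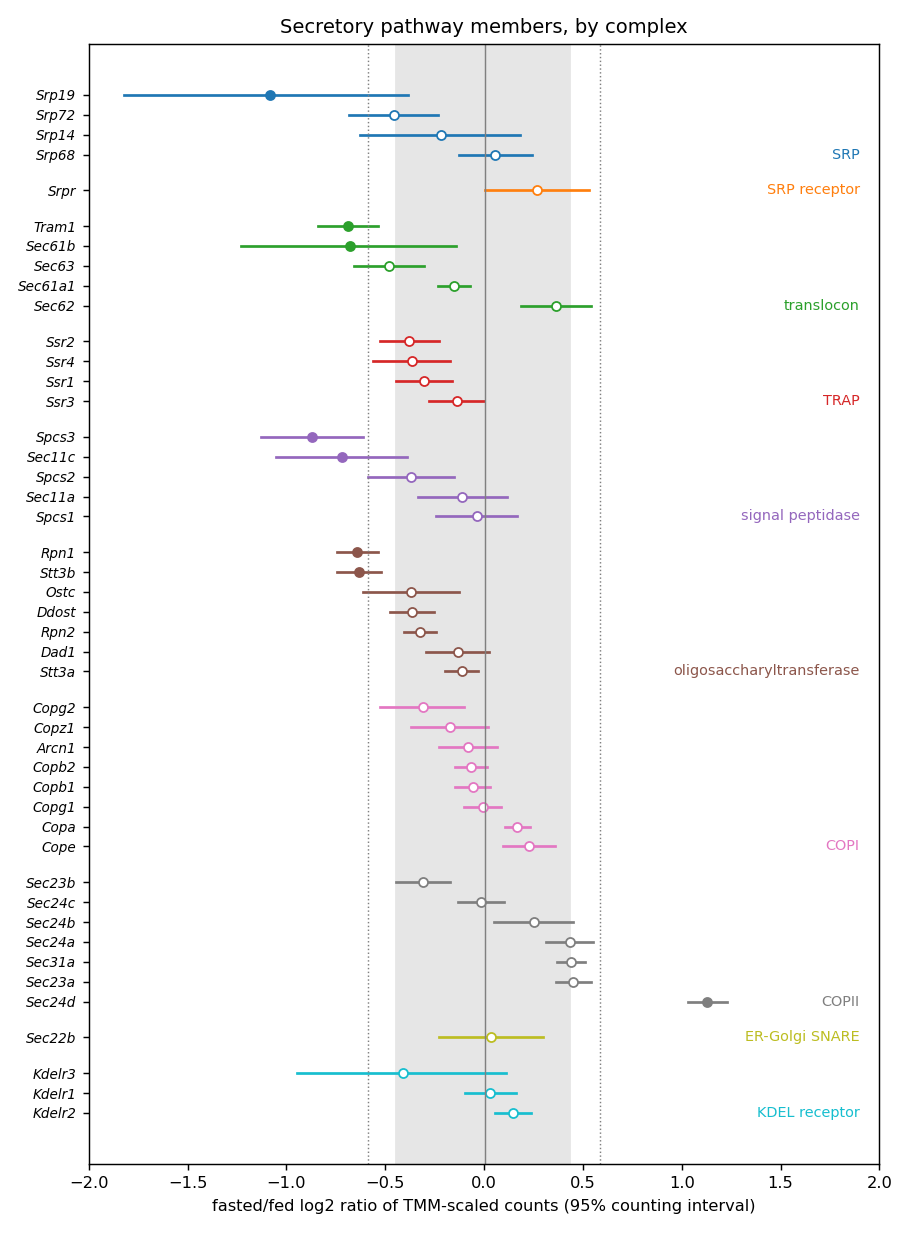
Fasted/fed log2 ratio of TMM-scaled counts (horizontal axis) for each of the 45 measured members (vertical axis), grouped and coloured by complex, with 95% counting intervals as lines. Filled points are the 8 members called higher or lower, dotted lines mark 1.5-fold, the grey band is the middle 50% of all measured genes and the grey line their median. The OST, TRAP and signal peptidase members lie to the left of the grey line, and 5 of the 7 COPII members lie to its right.

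Targeting to the ER was represented by 4 measured SRP proteins and 1 receptor subunit. Srp19, which helps to assemble the SRP RNA-protein particle (ENSMUSG00000014504, chromosome 18, 34330847 to 34336599, plus strand, build mm10 as for all coordinates), was 2.12-fold lower, with 24 fasted and 65 fed counts. Its level was 4.94 TMM-scaled CPM in the fasted and 10.5 in the fed library, a log2 ratio of -1.08 (95% interval -1.82 to -0.39), on few reads. Srp72 and Srp68, which form a heterodimer on the SRP RNA, were not called, except that Srp72 was lower with plain CPM (-0.78). Srp72 had 260 fasted and 456 fed counts (log2 ratio -0.46, interval -0.68 to -0.23), and Srp68 had 437 fasted and 537 fed counts (0.058, -0.13 to 0.24). Srp14, part of the domain that pauses elongation, had 88 fasted and 131 fed counts (-0.22, -0.63 to 0.18), within counting error. The receptor subunit Srpr had 236 fasted and 251 fed counts (0.27, 0.0036 to 0.53; -0.056 with plain CPM).

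Of the remaining members, 3 could not be followed at all. Srp9, the partner of Srp14, had 0 fasted and 1 fed count. Srprb, the membrane-anchored receptor subunit, and Sec61g, a small translocon subunit, had 0 counts in both libraries. Where reads can be assigned, 0 counts allows up to 0.617 TMM-scaled CPM in the fasted and 0.483 in the fed library. It sets no such limit for Srprb and Sec61g, because most or all of their coding sequence is shared. The coding sequences of all 3 genes are shared with other annotated genes. Of the 28-base stretches in the Srp9 coding sequence 97.8% also occur in the pseudogene Gm13736, for Sec61g 84.2% also occur in Gm10177, and for Srprb 100% also occur in the overlapping gene Gm20425. Reads that align to several places or to overlapping genes were not assigned to genes in these tables, so a count of 0 here does not show that the mRNA was untranslated. Among measured members the smallest unique shares were those of Sec61b (33.5%), Srpr (49.1%), Arcn1 (52.8%) and Spcs2 (66.3%), and their levels rest on that part of the coding sequence.

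The translocon members moved unequally. Sec61a1, which forms the channel itself, had 2079 counts in the fasted and 2951 in the fed library, a log2 ratio of -0.15 (-0.23 to -0.069). Tram1, a membrane protein that assists the entry of some chains (ENSMUSG00000025935, chromosome 1, 13564698 to 13589910, minus strand), was 1.61-fold lower, with 534 fasted and 1100 fed counts (-0.69, -0.84 to -0.54). Sec61b, a small subunit of the channel (ENSMUSG00000053317, chromosome 4, 47474658 to 47483242, plus strand), had 44 fasted and 90 fed counts (-0.68, -1.23 to -0.14). Tram1 and Sec61b were thus both called lower, and Sec61a1 was not called although its interval lay below 0. The log2 odds ratio of Sec61a1 to Tram1, a pair chosen after its values were seen, was 0.54 (0.37 to 0.71). Sec62 and Sec63, which act together in post-translational entry, were not called, except that Sec63 was lower with plain CPM (-0.80, against 0.041 for Sec62). Sec62 had 516 fasted and 513 fed counts (0.36, 0.18 to 0.54), and Sec63 had 411 fasted and 733 fed counts (-0.48, -0.66 to -0.30). Sec62 made up 55.7% of the pair's counts in the fasted library (52.4% to 58.9%) and 41.2% in the fed library (38.4% to 44.0%), a log2 odds ratio of 0.84 (0.59 to 1.096). The TRAP complex, which sits beside the channel, had 4 of 4 members below the all-gene median and none called, at log2 ratios of -0.38 for Ssr2, -0.37 for Ssr4, -0.30 for Ssr1 and -0.14 for Ssr3. With plain CPM 3 of the 4 were lower, against 31.2% of all measured genes.

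All 5 signal peptidase members lay below the all-gene median and 2 were called lower (3 with plain CPM). Over all measured genes 17.3% were called lower (31.2% with plain CPM). Spcs3, an accessory subunit needed for cleavage (ENSMUSG00000054408, chromosome 8, 54520433 to 54529998, minus strand), was 1.83-fold lower, with 179 counts in the fasted and 418 in the fed library (log2 ratio -0.87, -1.13 to -0.61). Of its coding bases 13.9% lie under exons of another gene, Asb5. Sec11c (ENSMUSG00000024516, chromosome 18, 65800515 to 65817684, plus strand) and Sec11a are alternative catalytic subunits. Sec11c was 1.65-fold lower, with 115 fasted and 242 fed counts (-0.72, -1.05 to -0.39). Sec11a had 287 fasted and 396 fed counts (-0.11, -0.33 to 0.11), within counting error, and 29.1% of its coding bases lie under exons of Gm16171. Sec11c therefore made up less of the catalytic pair in the fasted library, at 28.6% (24.2% to 33.3%) against 37.9% in the fed library (34.2% to 41.8%). Spcs1 and Spcs2 had log2 ratios of -0.037 and -0.37 and were not called.

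Against 17.3% lower over all measured genes (31.2% with plain CPM), OST had 2 of 7 members called lower (5 with plain CPM) and 0 higher. OST had 7 of 7 members below the all-gene median and a median log2 ratio of -0.36. Summed over its members, it had 1660.4 TMM-scaled CPM in the fasted and 2133 in the fed library, a log2 ratio of -0.36 (-0.40 to -0.32). Rpn1, a ribophorin subunit (ENSMUSG00000030062, chromosome 6, 88084482 to 88105304, plus strand), was 1.56-fold lower, with 1175 fasted and 2343 fed counts (-0.64, -0.74 to -0.54). The other shared subunits were not called. Rpn2 had 2036 fasted and 3260 fed counts (-0.32, -0.40 to -0.24), and Ddost had 1057 fasted and 1738 fed counts (-0.36, -0.47 to -0.25), and both were called lower with plain CPM. Dad1 had 553 fasted and 775 fed counts (-0.13, -0.29 to 0.027), within counting error. Each OST complex holds 1 of the alternative catalytic subunits, Stt3a, which acts on chains as they enter the channel, or Stt3b, which also acts on sites that Stt3a skips. Stt3b (ENSMUSG00000032437, chromosome 9, 115242581 to 115310421, minus strand) was 1.55-fold lower, with 989 fasted and 1959 fed counts (-0.63, -0.74 to -0.52). Stt3a had 2029 fasted and 2805 fed counts (-0.11, -0.20 to -0.029). Stt3b held 32.8% of the catalytic counts in the fasted library (31.1% to 34.5%) and 41.1% in the fed library (39.7% to 42.5%), and the log2 odds ratio of Stt3a to Stt3b was 0.52 (0.38 to 0.66). Ostc, which joins the Stt3a form, had 230 fasted and 380 fed counts (-0.37, -0.61 to -0.13).

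**Figure D2:**
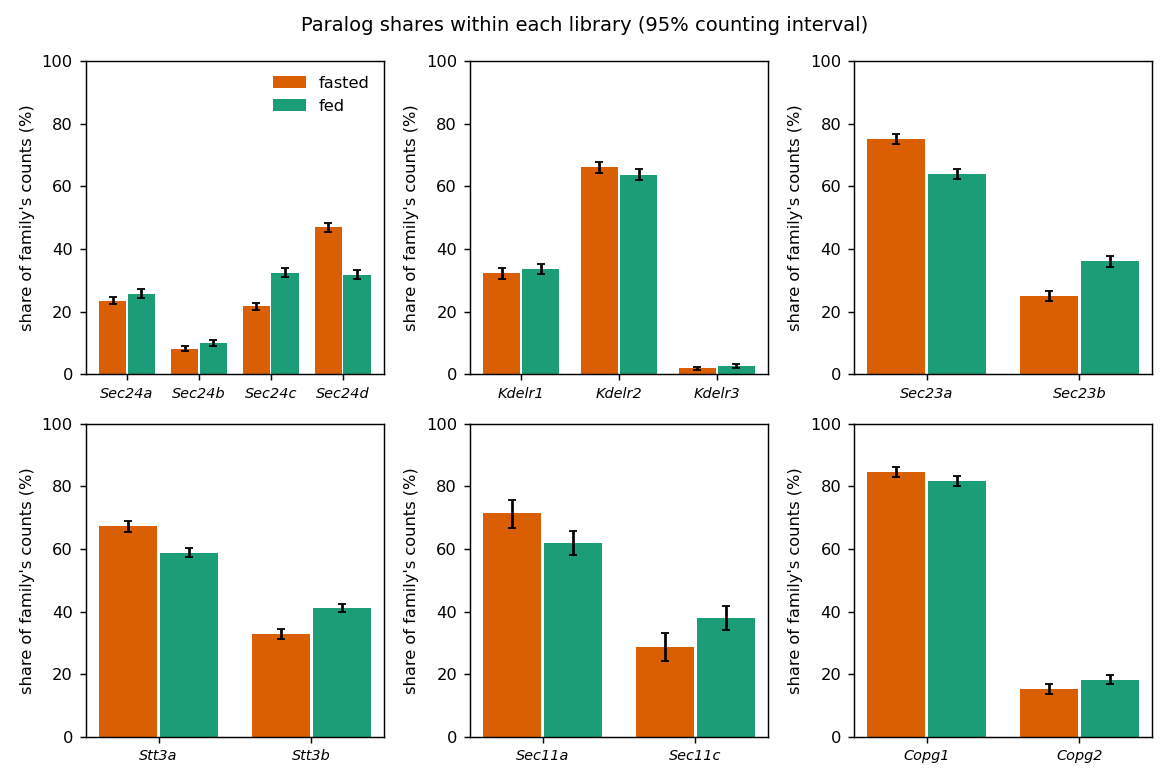
Share of each paralog in its family's counts (vertical axis, percent) in the fasted (orange) and fed (green) library, with 95% exact binomial intervals that cover counting error only. Sec24d held 46.9% of Sec24 counts in the fasted library and 31.8% in the fed library, and Sec11c, Stt3b and Sec23b held smaller shares in the fasted library.

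The COPII coat is built in layers, an inner Sec23-Sec24 layer, in which Sec24 selects the cargo, and an outer layer of Sec13 and Sec31. Sec24d (ENSMUSG00000039234, chromosome 3, 123267455 to 123365641, plus strand) was the 1 member called higher. It had 2352 counts (484 TMM-scaled CPM) in the fasted and 1375 counts (221 TMM-scaled CPM) in the fed library, and was 2.19-fold higher (log2 ratio 1.13, 1.03 to 1.23; 0.81 with plain CPM). Its ratio lay at percentile 93.7 of all measured genes. The other Sec24 genes were not called, with 1176 fasted and 1114 fed counts for Sec24a (0.43, 0.31 to 0.55), 403 fasted and 433 fed counts for Sec24b (0.25, 0.052 to 0.45; -0.071 with plain CPM) and 1085 fasted and 1404 fed counts for Sec24c (-0.017, -0.13 to 0.099). Sec24d and Sec24c are close relatives with overlapping cargo preference, and their counts were near equal in the fed library only. Sec24c made up 31.6% of this pair in the fasted library (30.02% to 33.2%) and 50.5% in the fed library (48.6% to 52.4%), a log2 odds ratio of -1.15 (-1.30 to -0.995).

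The same kind of contrast held between the Sec23 genes. Sec23a (ENSMUSG00000020986, chromosome 12, 58958383 to 59012017, minus strand) had 2122 counts in the fasted and 1986 in the fed library (0.45, 0.36 to 0.54; 0.13 with plain CPM). Sec23b had 707 fasted and 1120 fed counts (-0.31, -0.45 to -0.17), and was called lower with plain CPM alone (-0.63). Sec23a made up 75.01% of the pair in the fasted library (73.4% to 76.6%) and 63.9% in the fed library (62.2% to 65.6%), a log2 odds ratio of 0.76 (0.60 to 0.92). The outer-layer gene Sec31a (ENSMUSG00000035325, chromosome 5, 100361649 to 100416234, minus strand) had 3425 fasted and 3228 fed counts (0.44, 0.37 to 0.51; 0.12 with plain CPM). Over the 7 COPII members the median log2 ratio was 0.43 (0.11 with plain CPM), and their summed level was 2319 TMM-scaled CPM in the fasted and 1715 in the fed library.

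Promoters of the members were searched for letters linked to the ER stress response, and the matches are shown for the genes that hold them. RefSeq promoters (GRCm38.p6, 250 bases before to 50 after the start) were found for 38 members, 41 promoters in all. The ER stress element (ERSE) and the related ERSE-II, searched on both strands, occurred in 0 of the 41, against 0.119% of all 32851 promoters for ERSE and 0.0365% for ERSE-II. The heptamer TGACGTG, the core of a site bound by the ER stress factors ATF6 and XBP1, occurred on either strand in 6 of 41 member promoters (14.6%) and in 2.01% of all promoters. Member promoters were also richer in G and C, at a mean of 59.3% against 53.8%, and the part of base composition in these shares was not tested. The 6 were Sec24d, Sec23a, Copb1, Copb2, Kdelr3 and Srpr. They include the members with the highest COPII ratios, but also Copb1 and Copb2 near the typical gene. Srpr had a log2 ratio of 0.27 (0.0036 to 0.53; -0.056 with plain CPM). Kdelr3 lay below the typical gene at -0.41, with an interval (-0.94 to 0.11) that included it. The 60 bases before the RefSeq start are shown for 5 of the 6 genes, 5′ to 3′ on the gene's strand. The heptamer or its reverse complement is in capitals. In Copb2 the match runs 1 base past the start, so 61 bases are given, and in Sec23a it lies after the start and is not shown.
Sec24d, chr3:123267436-123267495, plus strand: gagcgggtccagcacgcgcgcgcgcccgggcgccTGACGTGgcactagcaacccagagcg
Srpr, chr9:35211143-35211202, plus strand: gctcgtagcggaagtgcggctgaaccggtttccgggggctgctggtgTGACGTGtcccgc
Copb1, chr7:114254681-114254740, minus strand: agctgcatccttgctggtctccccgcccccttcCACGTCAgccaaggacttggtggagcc
Copb2, chr9:98563671-98563731, plus strand: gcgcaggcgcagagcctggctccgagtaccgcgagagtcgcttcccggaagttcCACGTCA
Kdelr3, chr15:79516348-79516407, plus strand: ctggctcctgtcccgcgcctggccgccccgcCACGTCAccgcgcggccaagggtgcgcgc
All of these matches begin within 29 bases before the start. A match is a run of letters and does not show that a factor binds there.

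None of the 8 COPI members was called, against 17.2% higher and 17.3% lower over all measured genes. With plain CPM 1, Copg2, was lower, against 31.2% of all measured genes. The coat had 2437 TMM-scaled CPM in the fasted and 2387 in the fed library, a summed log2 ratio of 0.030 (-0.0053 to 0.065). Copa, which reads the retrieval signal of ER membrane proteins together with Copb2, had 4024 counts in the fasted and 4578 in the fed library (0.17, 0.11 to 0.23; -0.15 with plain CPM). Copb1 and Copb2, subunits of the inner and outer parts of the coat, kept the same balance. Copb1 made up 47.1% of their joint counts in the fasted (45.6% to 48.7%) and 47.0% in the fed library (45.6% to 48.3%), a log2 odds ratio of 0.0094 (-0.11 to 0.13). Copg1 and Copg2 are interchangeable gamma subunits, and Copg2 held 15.3% of their counts in the fasted library (13.8% to 17.0%) and 18.3% in the fed library (16.8% to 19.8%). Cope had a log2 ratio of 0.23, Copz1 of -0.17 and Arcn1, the delta subunit, of -0.081. Sec22b, a SNARE that acts in fusion between ER and Golgi, had 219 fasted and 273 fed counts (0.037, -0.23 to 0.30).

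KDEL receptors return ER chaperones from the Golgi apparatus. Kdelr2 had 1817 counts in the fasted and 2098 in the fed library (0.15, 0.056 to 0.24; -0.17 with plain CPM), Kdelr1 had 885 fasted and 1107 fed counts (0.032, -0.097 to 0.16), and Kdelr3 had 50 fasted and 85 fed counts (-0.41, -0.94 to 0.11). None was called, and with plain CPM Kdelr3 was lower (-0.73). Kdelr2 held most of the family's counts in both libraries, 66.0% in the fasted (64.2% to 67.8%) and 63.8% in the fed library (62.1% to 65.4%), while Kdelr3 held 1.82% in the fasted and 2.58% in the fed library.

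Levels can be compared between genes only per length, so TMM-scaled CPM was divided by the longest annotated coding sequence in kilobases. On this footprint density scale, which reflects mRNA amount as well as translation, Kdelr2 was the highest member. It had 588 CPM per kb in the fasted and 531 in the fed library. It was followed by Dad1 at 336 in the fasted and 368 in the fed library, and Sec61a1 at 299.6 in the fasted and 332 in the fed library. Members of a complex were close for TRAP, whose highest density was 1.95 times its lowest in the fasted and 1.70 times in the fed library. They were further apart for OST, at 4.07 times in the fasted and 2.88 times in the fed library. COPI had 9.48 times in the fasted and 6.79 times in the fed library, with Copg2 lowest and Copa highest in both. The lowest OST member, Stt3b, and Copg2 are alternatives to Stt3a and Copg1. The KDEL receptors had the widest spread (36.7 times fasted, 24.9 times fed). The translocon had 13.9 times in the fasted and 9.67 times in the fed library, with Sec61b lowest in both. The Sec61b density was 21.5 in the fasted and 34.4 in the fed library. With its coding sequence annotated as complete it was 31.4 in the fasted and 50.3 in the fed library. A translocon spread wider than that of COPI therefore rests on Sec61b. Within COPII, Sec24b was lowest at 22.1 in the fasted and 18.6 in the fed library, and Sec31a highest at 191.0 in the fasted and 141 in the fed library. The SRP members had lower densities than OST. Medians were 37.3 in the fasted and 41.3 in the fed library for SRP, and 164 in the fasted and 211 in the fed library for OST. Densities of members with shared coding sequence, such as Sec61b, are too low by an unknown amount.

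**Figure D3:**
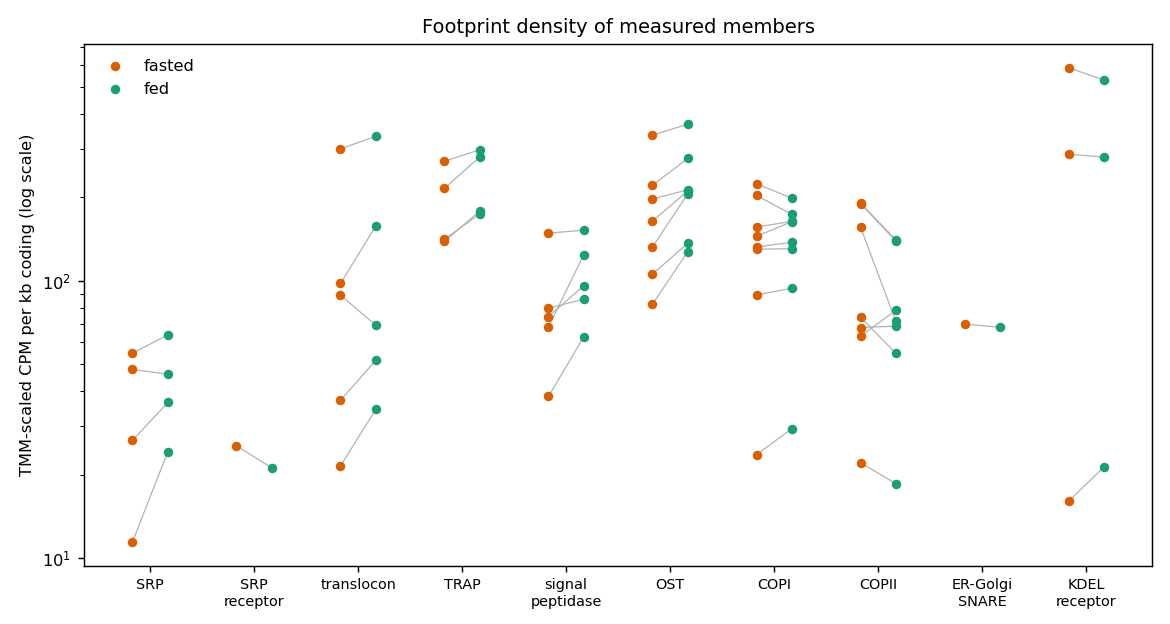
Footprint density of each measured member (vertical axis, TMM-scaled CPM per kb of coding sequence, log scale) in the fasted (orange) and fed (green) library, by complex, with a line joining the values of 1 gene. Kdelr2 tops the plot at 588 in the fasted and 531 in the fed library, and OST lines slope up towards the fed library.

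Other genes of the pathway, from lists not used to choose the members, can be set beside each complex. The background over all measured genes was 17.2% higher and 17.3% lower (8.86% and 31.2% with plain CPM). Shares called in the p24, SNARE and COPI lists below were near or under that background with TMM scaling. Of 14 measured COPII and ER exit-site genes outside the member list, 4 were higher, 1 was lower and 9 were neither (3 higher and 2 lower with plain CPM), at a median log2 ratio of 0.27 (-0.049 with plain CPM). Sar1b, the GTPase that starts the COPII coat and that in humans is needed for chylomicron export, had 1421 counts in the fasted and 709 in the fed library, 2.56-fold higher (1.36, 1.23 to 1.49). Sec16b, an exit-site scaffold, had 686 fasted and 390 fed counts (1.17, 0.99 to 1.35), and Tfg, which organises the zone between ER and Golgi, had 3321 fasted and 2121 fed counts (1.002, 0.92 to 1.08). These 3 were higher with plain CPM too. Klhl12, a ubiquitin ligase adaptor for Sec31, was lower (-0.66, -1.27 to -0.08). Of 17 measured p24 and cargo receptor genes, 3 were higher and 2 lower (1 and 7 with plain CPM), with Tmed4 (1.01, 0.85 to 1.18) and Ergic1 (-1.03, -1.38 to -0.69) furthest by the interval bound nearest to 1 in each direction. Of 29 measured SNAREs and tethers, 4 were higher and 1 lower (1 and 3 with plain CPM), led by Sec22c at 80 fasted and 33 fed counts (1.63, 1.03 to 2.26), with Stx5a (0.88), Nsf (0.88) and, lower, Bnip1 (-1.19). Of 12 COPI, Arf and retrieval genes, Arfgap3, an Arf GTPase activator, was higher (1.08, 0.95 to 1.21) and Copz2, an alternative zeta subunit, lower on 7 fasted and 28 fed counts (-1.64, -3.08 to -0.42).

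On the ER side, 16 further translocation and OST genes were measured, of which 2 were lower and 0 higher (9 lower with plain CPM), at a median log2 ratio of -0.35. Both lower genes are small OST subunits, Krtcap2, of the Stt3a form, at 164 counts in the fasted and 421 in the fed library (-1.01, -1.27 to -0.74), and Tmem258 at 142 fasted and 326 fed counts (-0.84, -1.14 to -0.56). Magt1, an oxidoreductase of the Stt3b form, had 504 fasted and 867 fed counts (-0.43, -0.59 to -0.27) and was not called, so subunits of both forms lay below the typical gene. Upstream of OST, 27 genes that build its lipid-linked sugar donor were measured, with 6 lower and 1 higher (8 and 0 with plain CPM) and a median of -0.094. The lower ones included the glucosyltransferases Alg8 (-1.21, -1.62 to -0.81) and Alg6 (-1.21, -1.76 to -0.68) and Dhdds, which makes dolichol (-1.12, -1.54 to -0.71). The higher one was Mpdu1 (0.71, 0.50 to 0.92), which was not called with plain CPM (0.39). Downstream of OST, 7 of 16 glycan trimming and folding genes were lower and 0 higher (8 lower with plain CPM), at a median of -0.48. Mogs, the glucosidase that makes the first cut in the transferred sugar, had 80 fasted and 379 fed counts (-1.89, -2.26 to -1.54), Lman2l, a lectin, had 6 fasted and 51 fed counts (-2.73, -4.24 to -1.51), and Calr, the lectin chaperone calreticulin, had 2909 fasted and 8079 fed counts (-1.12, -1.18 to -1.06). In the Golgi, 4 of 19 N-glycan processing genes were lower, among them the UDP-galactose carrier Slc35a2 (-0.83, -1.10 to -0.56), and 1 was higher, the mannosidase Man1a (0.79, 0.68 to 0.90; 0.47 with plain CPM, which gave 7 lower and 0 higher). With TMM scaling the share called lower was near the 17.3% background for the sugar donor and Golgi lists. It was under that background for the further translocation and OST genes, and above it for the trimming and folding genes.

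Markers of many cell types, secretory or not, differed between the libraries. The counts below stand against 17.2% higher and 17.3% lower over all measured genes (8.86% and 31.2% with plain CPM). Of 10 measured goblet cell markers, 6 were lower and 0 higher in the fasted library, and their summed level was 39240.4 TMM-scaled CPM in the fasted and 50892 in the fed library. Of 10 measured plasma cell markers, 7 were lower and 0 higher, with a summed level of 8014 in the fasted and 13237 in the fed library. The goblet list includes Ern2 and the plasma cell list Xbp1, and both genes are also counted among the ER stress genes below. Of 9 measured Paneth cell markers 5 were higher and 0 lower (1 higher with plain CPM), with a summed level of 16782 in the fasted and 14351 in the fed library. Of 12 measured enterocyte markers 8 were higher and 0 lower (8 and 1 with plain CPM), with a summed level of 117638 in the fasted and 50874.5 in the fed library. Of 10 measured enteroendocrine markers, which are secretory too, 5 were higher and 0 lower, with a summed level of 968 in the fasted and 583 in the fed library. Tuft cell markers were lower in 6 of 6 cases, with a summed level of 75.9 in the fasted and 158 in the fed library. Cycling crypt cell markers were lower in 6 of 10 cases and higher in 0, with a summed level of 767 in the fasted and 2098 in the fed library. Smooth muscle markers were lower in 6 of 8 cases and higher in 0, with a summed level of 2565 in the fasted and 4818 in the fed library. Fibroblast markers were mixed, 5 of 8 lower and 2 higher (6 and 0 with plain CPM), with a summed level of 2256 in the fasted and 5341 in the fed library. Markers of macrophages and dendritic cells (1 of 8 lower) and of T cells (2 of 8 lower) were mostly uncalled with TMM scaling. With plain CPM 4 of 8 were lower in each of these lists. Among called markers the directions thus differed between secretory cell types, lower for goblet and plasma cells and higher for Paneth and enteroendocrine cells. Not all markers of a type moved together, as 4 goblet and 4 Paneth markers were uncalled. The abundant goblet markers Fcgbp (0.15) and Zg16 (0.53) lay above the typical gene with TMM scaling. For Paneth cells the direction rested on the scaling, with 1 marker higher with plain CPM. Among these lists the 1 listed gene at 0 in both libraries was Defa17, a Paneth cell marker. The ileal genes Fabp6 (16615 fasted and 28873 fed counts) and Slc10a2 (2390 fasted and 2458 fed counts) were present in both, as the tissue label states. In bulk tissue, fewer cells of a type and less RNA per cell cannot be told apart, and the part of cell composition in the values of the secretory machinery was not tested.

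**Figure D4:**
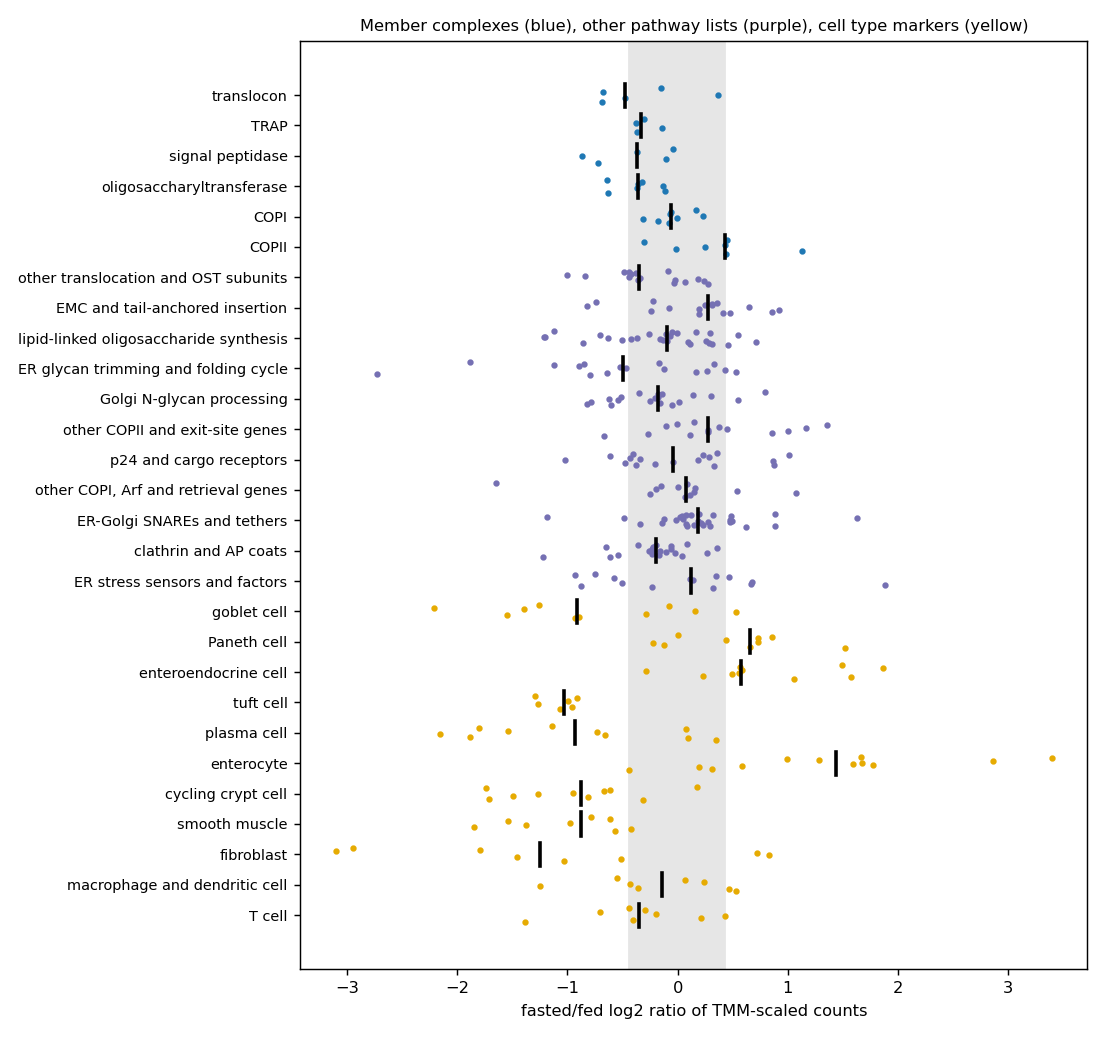
Fasted/fed log2 ratio of TMM-scaled counts (horizontal axis) of every measured gene in 6 member complexes (blue), 11 other pathway lists (purple) and 11 cell type marker lists (yellow), with list medians as black bars and the middle 50% of all measured genes in grey. OST and translocon medians lie left of 0 and the COPII medians right of 0. Among cell types, the Paneth, enteroendocrine and enterocyte medians lie right of 0 and the other 8 lie left of it.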

How the data were processed

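The authors deposited raw footprint counts per gene symbol for each library, not normalised. The submitters' processing notes list cutadapt, Bowtie 1.1.2, STAR and HTSeq as tools and mm10 as the build, without saying which step each did. The sources used here do not state the annotation, strand setting or footprint length filter, and so reads of overlapping or antisense genes cannot be told apart. Entries given as NA were read as 0, and totals of reads assigned to no gene were left out of library sizes. These were 21.0% of counted reads overlapping no counted feature, 39.9% aligned to several places and 0.196% ambiguous in the fasted file, and 13.4%, 41.4% and 0.209% in the fed file.

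Counts were scaled with TMM (edgeR 4.0.16, R 4.3.3), and edgeR was used for scaling only. Each fasted/fed ratio has a 95% Clopper-Pearson interval on the split of a gene's counts, and each pair of genes or complexes a conditional exact odds ratio (scipy 1.17.1). Libraries were amplified by PCR, per the labels' protocols, without stated molecular identifiers, so intervals and the floor of 3 counts cover counting error only. List medians used 0.5 added counts. These functions were tested on simulated data. Gene identifiers, coordinates (1-based) and coding lengths came from GENCODE vM21 (GRCm38, the assembly of mm10), matched by symbol for 48 members. Shared coding sequence was counted as exact 28-base stretches found in transcripts of other genes, on either strand.

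The members and gene lists were chosen with earlier results of these data known. All members are named, with up to 3 called genes of each other pathway list in its main direction and up to 2 in the other, ranked by the interval bound nearest to 1. Magt1, Xbp1, Fcgbp, Zg16, Defa17 and the ileal genes Fabp6 and Slc10a2 were chosen after their values were seen. The alternatives were plain CPM, DESeq2 1.42.0 size factors, upper-quartile factors, TMM without abundant genes, other count minimums, a 2-fold threshold and stricter intervals (0.1% error).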

Additional observations from a re-analysis of the deposited data

Results flagged for a closer look

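Reads overlapping no counted feature were outside the gene counts used here and made up 21.0% of counted reads in the fasted file and 13.4% in the fed file, so a larger part of the fasted library was not assigned to genes.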

How the results depend on the processing

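Sec24d was the 1 member called higher under all 4 other scalings, all count minimums, a 2-fold threshold and stricter intervals (0.1% error). The count of lower members was 7 under median-ratio, upper-quartile and TMM scaling without abundant genes, 5 with a minimum of 200 counts or with stricter intervals, 1 at 2-fold and 19 with plain CPM. With plain CPM the median log2 ratio of the members was -0.46, against -0.32 over all measured genes. Srp19 and Sec61b lost their calls with stricter intervals, and the balances of Sec11a to Sec11c, Copg1 to Copg2 and Kdelr3 to Kdelr2 then no longer excluded 1. With the coding sequence annotated as complete, the Sec61b density in the fed library was 50.3 rather than 34.4 CPM per kb. Densities from RefSeq protein lengths were not run. No paired analysis was possible because each condition has 1 library, and no replicate could be left out. At this depth the count-poor members Srp14, Srp19, Sec61b and Kdelr3 have the widest intervals.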

Other observations

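Called regulators of ER capacity went in both directions. Of 14 measured ER stress sensors and factors, 3 were higher, 3 lower and 8 uncalled in the fasted library (1 higher and 5 lower with plain CPM). These counts were near the shares over all measured genes, 17.2% higher and 17.3% lower (8.86% and 31.2% with plain CPM). Creb3l3, an ER-anchored transcription factor of liver and intestine that acts in lipid metabolism, had 4673 counts in the fasted and 1622 in the fed library, 3.68-fold higher (log2 ratio 1.88, 95% interval 1.80 to 1.96). Its relatives differed in direction, with Creb3l2 at 500 fasted and 403 fed counts (0.67, 0.47 to 0.86; 0.34 with plain CPM) and Creb3l4 at 70 fasted and 164 fed counts (-0.87, -1.30 to -0.46). Both IRE1 genes were lower, Ern1 with 108 fasted and 233 fed counts (-0.75, -1.10 to -0.42) and Ern2, the form of mucosal secretory cells, with 83 fasted and 203 fed counts (-0.94, -1.32 to -0.56). Xbp1, the mRNA that IRE1 splices, had 961 fasted and 968 fed counts (0.34, 0.21 to 0.47; 0.022 with plain CPM) and was not called.

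Most genes of the coats that act after the Golgi apparatus, and of 2 other insertion routes into the ER, were not called. In both lists the shares called were below those of all measured genes (17.2% higher and 17.3% lower, 8.86% and 31.2% with plain CPM). The lists still leaned in opposite directions. A ratio below the all-gene median was found for 17 of 21 clathrin and adaptor genes (median -0.19), and for 5 of 16 insertion genes. Of 21 measured clathrin and adaptor genes, 2 were lower and 0 higher (6 lower with plain CPM), Gga2 with 40 fasted and 119 fed counts (-1.22, -1.77 to -0.69) and Ap1g2 with 198 fasted and 398 fed counts (-0.65, -0.91 to -0.40). Of 16 measured genes of the ER membrane protein complex and tail-anchored insertion, 2 were higher and 2 lower (plain CPM gave 1 and 2), and the median was 0.28 (-0.042 with plain CPM). Higher were Get4, which hands tail-anchored proteins on (0.92, 0.62 to 1.22), and Caml (0.86, 0.47 to 1.25), and lower were Emc2 (-0.74, -1.11 to -0.38) and Emc8 (-0.82, -1.48 to -0.19).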
